A study of Mus musculus with 9 samples.

Results

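Gpnmb, Trem2 and 8 further genes of lipid-associated macrophages (Tyrobp, Apoe, Apoc1, Spp1, Lgals3, Lgals1, Cd9 and Cd63) were followed in 9 arrays of mouse macrophages. The 10 genes were selected by name, with earlier results of these arrays known, and every non-control spot bearing one of these names was taken. They are 10 of the 16462 genes tested and 19 of the 59305 non-control spots, since each gene had 1 probe and only the Apoe probe was spotted 10 times. All came from C57BL/6J mice and fall into 3 groups of 3: F4/80high tumour-associated macrophages (TAMs) and F4/80low TAMs, both of a fibrosarcoma, and macrophages of the peritoneal exudate (PECs), the controls. No further treatment, genotype or age is given for any group. The subsets are named for the surface protein that Adgre1 encodes, the sole marker given, and neither the fibrosarcoma line nor an agent that elicited the exudate is named. Tumour and tissue of origin therefore differ together between TAMs and PECs and cannot be told apart. The 3 samples of a group are called biological replicates, with no statement that each came from its own animal, so a p-value here reflects the spread among the samples at hand, part of which may be technical.

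Macrophages that take up much lipid, in fat tissue, plaques, demyelinated brain and tumours, share a programme built around Trem2. Trem2 is a surface receptor for lipids and lipoproteins, and Tyrobp (DAP12) is the adaptor through which it signals. Gpnmb is a transmembrane glycoprotein of late endosomes and lysosomes that is induced under lysosomal load, in part by MiT-TFE transcription factors. Apoe and Apoc1 encode secreted apolipoproteins that carry lipid out of the cell. Spp1 encodes osteopontin, a secreted ligand of integrins and CD44. Lgals3 and Lgals1 encode galectins, which bind sugars on glycoproteins, and Cd9 and Cd63 encode tetraspanins of the cell surface and of late endosomes.

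The promoters of 7 of the 10 genes were found in a RefSeq table of mouse promoters (build GRCm38.p6, windows of 300 bases that begin 250 bases before a transcript's start), and those of Tyrobp, Apoc1 and Lgals1 were not used here. The windows of Gpnmb, Trem2, Spp1 and Apoe are printed because the results below turn on these 4 genes, which did not share 1 pattern. Each is written 5′ to 3′ on the gene's strand, and capitals mark a match to one of 4 motifs, searched on both strands: the E-box CACGTG, the M-box TCATGTG, the PU.1 box GAGGAAGT and the AP-1 site TGANTCA. For Spp1 and Apoe the first of several windows is shown.

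Gpnmb, chr6:49036268-49036567, + strand: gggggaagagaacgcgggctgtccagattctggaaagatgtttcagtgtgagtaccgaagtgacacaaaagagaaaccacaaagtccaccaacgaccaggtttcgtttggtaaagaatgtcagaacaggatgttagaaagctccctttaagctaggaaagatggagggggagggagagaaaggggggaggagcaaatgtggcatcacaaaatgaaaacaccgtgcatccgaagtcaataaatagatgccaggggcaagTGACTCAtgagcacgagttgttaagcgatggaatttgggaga
Trem2, chr17:48346151-48346450, + strand: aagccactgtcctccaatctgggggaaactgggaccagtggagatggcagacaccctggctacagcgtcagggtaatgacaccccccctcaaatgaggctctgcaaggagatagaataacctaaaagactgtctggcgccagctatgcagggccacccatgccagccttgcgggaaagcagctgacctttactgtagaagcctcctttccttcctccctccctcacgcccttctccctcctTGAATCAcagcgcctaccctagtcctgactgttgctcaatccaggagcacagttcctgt
Spp1, chr5:104434861-104435160, + strand: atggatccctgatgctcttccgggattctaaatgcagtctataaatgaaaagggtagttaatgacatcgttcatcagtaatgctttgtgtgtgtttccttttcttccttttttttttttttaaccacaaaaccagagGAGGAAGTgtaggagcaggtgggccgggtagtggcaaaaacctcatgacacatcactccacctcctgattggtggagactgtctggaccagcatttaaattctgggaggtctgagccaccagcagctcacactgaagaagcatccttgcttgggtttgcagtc
Apoe, chr7:19699139-19699438, - strand: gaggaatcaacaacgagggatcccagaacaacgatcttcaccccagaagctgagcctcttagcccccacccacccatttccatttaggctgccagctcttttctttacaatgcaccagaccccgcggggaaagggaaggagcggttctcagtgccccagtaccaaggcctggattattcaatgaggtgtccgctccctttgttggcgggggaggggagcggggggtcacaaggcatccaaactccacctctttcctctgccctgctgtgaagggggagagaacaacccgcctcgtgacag

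An AP-1 site began at position 9 of the Gpnmb transcript, and another at position -9 from the Trem2 start. A PU.1 box began at position -113 from the start in the first Spp1 window. These letters were in none of the other windows of the 7 genes, and no window held an E-box or an M-box. Of the 32544 promoters of the table, 7.79% held an AP-1 site, 3.11% a PU.1 box, 7.17% an E-box and 3.79% an M-box. A match is a description of the sequence and no evidence of binding.

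Each array had 36.1% to 38.3% of its non-control spots well above background, with none saturated. Levels are log2 intensities with the array's 75th percentile set to 0, and they compare arrays for the same probe, not one gene with another. The median log2 difference of all genes was 0.00 between F4/80high TAMs and PECs, -0.09 between F4/80low TAMs and PECs, and 0.08 between F4/80high and F4/80low TAMs. With arrays centred on their median these 3 values were -0.16, -0.56 and 0.40. The genes past the threshold that were higher then made up 22.1% in place of 43.8% in F4/80low TAMs against PECs, and 75.9% in place of 57.1% in F4/80high against F4/80low TAMs. Without a filter on dim probes that share was 67.0% in F4/80low TAMs against PECs. Differences of the size of those shifts therefore depend on the scaling.

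Slide 1 carried all 6 TAM arrays and PEC replicate 1, and slide 2 carried PEC replicates 2 and 3. A value "within slide 1" below sets the 3 TAM arrays against the lone PEC array of that slide. The labels were checked against marker genes. All 8 macrophage genes (Csf1r, Adgre1, Fcgr1, Mertk, Itgam, Cd14, Lyz2 and Cd68) were well above background on every F4/80high TAM and PEC array, and 7 of 8 on every F4/80low TAM array, where Mertk was above background on none. In F4/80low TAMs Adgre1 and Lyz2 differed from PECs by -2.99 ± 0.27 and -2.72 ± 0.42, and all 7 measured neutrophil genes and all 6 T cell genes were above background on every array, so its markers do not show this subset to be macrophages alone. Adgre1 itself was 3.05 ± 0.27 (SE) higher on the log2 scale in F4/80high than in F4/80low TAMs. It differed by 0.05 ± 0.27 between F4/80high TAMs and PECs.

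Set against PECs, the 10 genes were mostly lower in both TAM subsets. All 10 separated F4/80high TAM arrays from PEC arrays without overlap, 9 of them lower and Apoe higher. In F4/80low TAMs 9 were lower without overlap, and Apoc1 overlapped. Their log2 differences ranged between -9.27 and 0.57 in F4/80high TAMs against PECs (median -1.05) and between -7.94 and -0.19 in F4/80low TAMs against PECs (median -1.59). F4/80high and F4/80low TAMs differed less, with a median of 0.38, and only Trem2, Apoe, Lgals1 and Apoc1 separated these arrays without overlap. These TAM comparisons share the PEC arrays.

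Because the genes were chosen with these contrasts in view, their counts past the threshold (limma's adjusted p under 0.05) are descriptions, and nothing is read from them. In F4/80high TAMs against PECs 8 of 10 were lower and 0 higher, where 28.0% of all genes were lower and 25.0% higher. In F4/80low TAMs against PECs 9 of 10 were lower and 0 higher, beside 29.2% and 22.7% of all genes. In F4/80high against F4/80low TAMs 3 were higher (Trem2, Apoe and Lgals1) and 1 was lower (Apoc1), beside 18.6% and 14.0% of all genes. Arrays of the compared groups did not overlap for 65.2% of all genes in F4/80high TAMs against PECs, for 59.3% in F4/80low TAMs against PECs and for 46.7% between the TAM subsets. Within slide 1 a single PEC array carries each comparison with PECs, so the differences there are given below for each gene and no count is read from them.

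**Figure D1:**
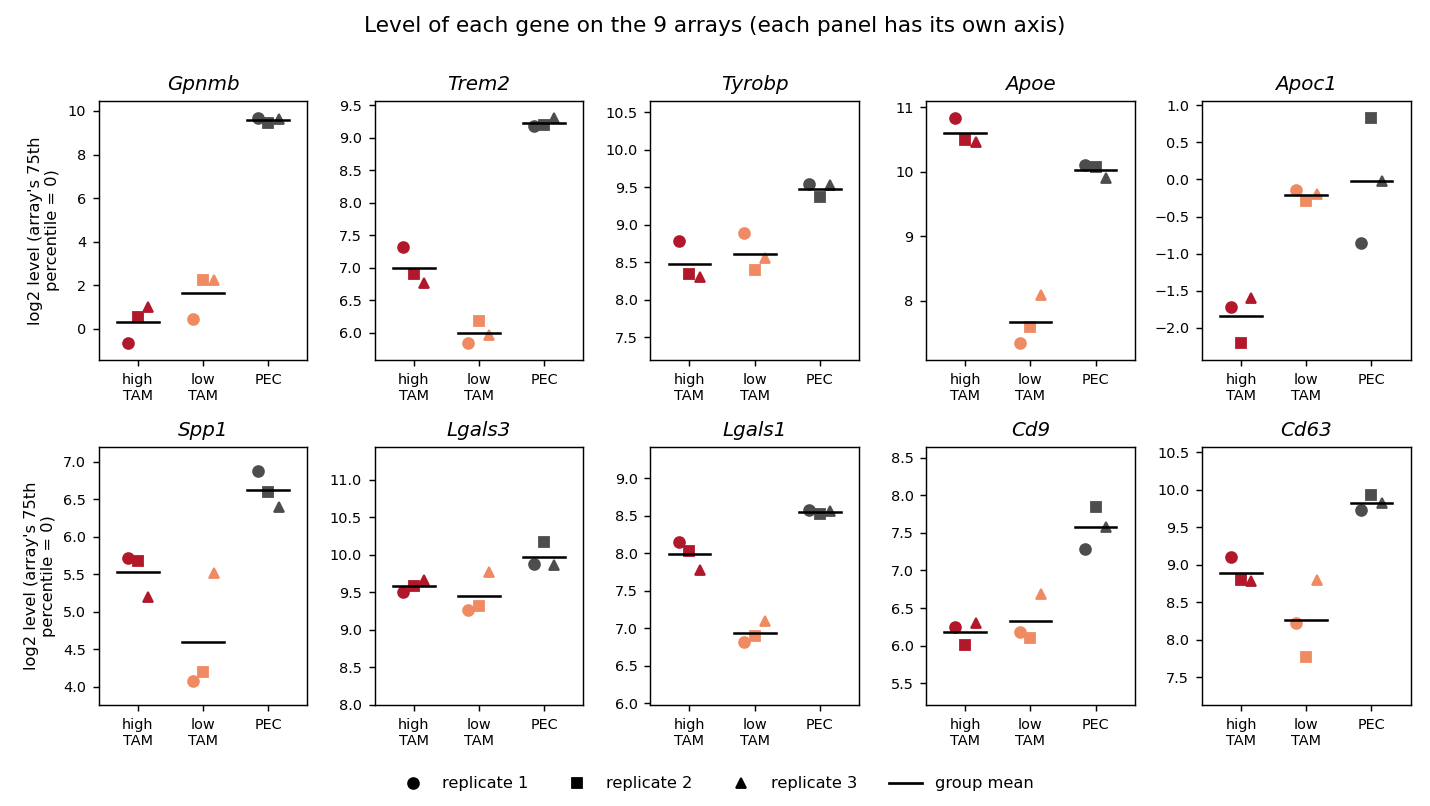
The log2 level of each of the 10 genes (vertical axis, array's 75th percentile at 0, each panel with its own axis) on the 3 arrays of F4/80high TAMs, F4/80low TAMs and PECs, with the replicate as the symbol and the group mean as a line. Gpnmb lies near 9.6 in PECs and at or below 2.24 in all 6 TAM arrays, and Apoe is the one gene whose F4/80high TAM arrays lie above the PEC arrays while its F4/80low TAM arrays lie below them.

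Gpnmb had the widest gap. Its level was -0.65, 0.57 and 1.03 in F4/80high TAM replicates 1 to 3 and 0.46, 2.24 and 2.23 in F4/80low TAM replicates 1 to 3, against 9.68, 9.44 and 9.64 in PEC replicates 1 to 3. All 6 TAM arrays lay far below all 3 PEC arrays, yet the spot was well above background on each of the 9. In processed intensity this is 40.5 to 145 in F4/80high arrays and 73.4 to 265 in F4/80low arrays, against 56640 to 77450 in PECs. The log2 difference was -9.27 ± 0.53 (SE) in F4/80high TAMs, a 617-fold lower level, and -7.94 ± 0.53 in F4/80low TAMs, a 246-fold lower level. By size these were the 19th and 36th largest of the 16462 genes.

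Within slide 1 the Gpnmb differences were -9.36 and -8.04, close to the pooled ones. Across all alternatives they stayed between -9.62 and -8.60 in F4/80high TAMs and between -8.42 and -7.35 in F4/80low TAMs. Between the TAM subsets Gpnmb differed by -1.33 ± 0.53 (F4/80high minus F4/80low), but the arrays overlapped, since F4/80low TAM replicate 1 lay below the upper 2 F4/80high arrays. This difference passed the threshold only with the replicate number as a block (SE 0.39) and with 1 further alternative, and it missed it in the unpaired fit.

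Trem2 was lower in both TAM subsets, and lowest in F4/80low TAMs. Its level was 7.32, 6.90 and 6.77 in the F4/80high TAM arrays and 5.84, 6.18 and 5.96 in the F4/80low TAM arrays, against 9.18, 9.20 and 9.30 in the PEC arrays. The 3 groups formed 3 bands with no overlap. The difference from PECs was -2.23 ± 0.19 in F4/80high arrays and -3.24 ± 0.19 in F4/80low arrays, and within slide 1 it was -2.19 and -3.19. F4/80high TAMs held 1.00 ± 0.19 more than F4/80low TAMs, a 2.00-fold higher level, with values of 0.44 to 1.32 over the alternatives.

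Tyrobp, the adaptor of Trem2 and of several other myeloid receptors, moved less. It stood at 8.79, 8.35 and 8.30 in F4/80high arrays and at 8.89, 8.40 and 8.55 in F4/80low arrays, against 9.54, 9.37 and 9.53 in PECs. Both subsets lay below PECs, with log2 differences of -1.002 ± 0.197 in F4/80high and -0.87 ± 0.20 in F4/80low TAMs, or -1.06 and -0.93 within slide 1. They overlapped with each other, and their difference was -0.13 ± 0.20 (95% interval -0.58 to 0.31), with its sign turned to 0.18 when arrays were centred on their median. The differences of the receptor were thus -2.23 and -3.24, beside -1.002 and -0.87 for its adaptor.

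Apoe followed another order. Its level was 10.84, 10.49 and 10.46 in F4/80high arrays and 7.34, 7.60 and 8.08 in F4/80low arrays, against 10.11, 10.07 and 9.90 in PECs. The F4/80high TAM arrays lay above all PEC arrays and the F4/80low TAM arrays below them. The probe was read from 10 spots on each array, whose intensities varied with a CV of 2.58% to 12.3%, so each level rests on more measurements than those of the other genes. F4/80high TAMs held 2.92 ± 0.22 more than F4/80low TAMs on the log2 scale, a 7.59-fold higher level, and this stayed between 2.61 and 3.24 over the alternatives.

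F4/80high TAMs differed from PECs by 0.57 ± 0.22, and by 0.48 within slide 1. F4/80low TAMs differed from PECs by -2.35 ± 0.22, and by -2.44 within slide 1. The F4/80high difference did not pass the threshold, and it was 0.28 after quantile normalization and 0.18 in the deposited value table. The size by which F4/80high TAMs exceeded PECs in Apoe therefore varied with the scaling, whereas the gap between the TAM subsets lies within slide 1 and is larger than any shift of scale. F4/80high TAMs and PECs thus shared a high Apoe level while their Gpnmb levels differed by -9.27 on the log2 scale.

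Apoc1 lies beside Apoe in the genome: the Apoc1 probe (mm9, chr7:20274831-20274890) is 6841 bases away from the Apoe probe (mm9, chr7:20281732-20281791). It was dim, at processed intensities of 12.3 to 23.4 in F4/80high arrays and 45.7 to 49.3 in F4/80low arrays, against 41.9 to 145 in PECs. It was well above background on every array except F4/80high TAM replicate 2. Its level was -1.71, -2.21 and -1.60 in F4/80high arrays and -0.15, -0.30 and -0.20 in F4/80low arrays, against -0.86, 0.83 and -0.02 in PECs. The F4/80high TAM arrays were the lowest, and the PEC arrays lay on both sides of the F4/80low TAM arrays.

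Apoc1 differed by -1.63 ± 0.37 in F4/80high against F4/80low TAMs, the opposite order to Apoe. With normexp background correction that gap shrank to -0.47 and no longer passed. Against PECs the differences were -1.82 ± 0.37 in F4/80high arrays and -0.19 ± 0.37 in F4/80low arrays, but within slide 1 they were -0.98 and 0.65, the slide 1 PEC array being the PEC array with the least Apoc1. Apoc2, another apolipoprotein gene of the same stretch (its probe lies 24645 bases away from the Apoe probe), had the direction of Apoe between the subsets. It was higher in F4/80high than in F4/80low TAMs by 1.63 ± 0.32 (adjusted p = 0.0042, limma over all genes). It did not share the order of Apoe against PECs, with means of 5.53 in F4/80high arrays, 3.90 in F4/80low arrays and 3.04 in PECs.

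Spp1 was lower in both subsets, with the widest replicate spread in F4/80low TAMs. Its level was 5.72, 5.67 and 5.20 in F4/80high arrays and 4.08, 4.20 and 5.51 in F4/80low arrays, against 6.88, 6.59 and 6.40 in PECs. All TAM arrays lay below all PEC arrays, and F4/80low TAM replicate 3 lay within the F4/80high range. The differences from PECs were -1.09 ± 0.36 and -2.03 ± 0.36, or -1.34 and -2.28 within slide 1. Between the subsets F4/80high TAMs held 0.93 ± 0.36 more, which missed the threshold. Without F4/80low TAM replicate 3 this difference was 1.39 ± 0.23 and passed.

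The galectins split. Lgals3 was nearly level across the groups, at 9.51, 9.58 and 9.67 in F4/80high arrays and 9.26, 9.32 and 9.77 in F4/80low arrays, against 9.87, 10.16 and 9.86 in PECs. Its difference from PECs was -0.38 ± 0.19 in F4/80high and -0.52 ± 0.19 in F4/80low TAMs, with little room between the arrays, and -0.28 and -0.42 within slide 1. Lgals1 stood at 8.14, 8.03 and 7.78 in F4/80high arrays and at 6.82, 6.90 and 7.10 in F4/80low arrays, against 8.57, 8.52 and 8.56 in PECs, 3 bands with no overlap as for Trem2.

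Lgals1 differed from PECs by -0.56 ± 0.16 in F4/80high arrays and by -1.61 ± 0.16 in F4/80low arrays (-0.58 and -1.63 within slide 1). F4/80high TAMs held 1.05 ± 0.16 more Lgals1 than F4/80low TAMs, a 2.06-fold higher level, and 0.14 ± 0.19 more Lgals3 (95% interval -0.28 to 0.56). The Lgals1 gap between the subsets passed the threshold under all 19 alternatives and the Lgals3 gap under 0 of 18.

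The tetraspanins were lower in both subsets. Cd9 was 6.24, 6.00 and 6.30 in F4/80high arrays and 6.18, 6.11 and 6.69 in F4/80low arrays, against 7.29, 7.85 and 7.59 in PECs. The TAM subsets overlapped in part, with a difference of -0.14 ± 0.22, and differed from PECs by -1.39 ± 0.22 and -1.25 ± 0.22 (by -1.10 and -0.96 within slide 1). Cd63 was 9.10, 8.79 and 8.78 in F4/80high arrays and 8.22, 7.77 and 8.80 in F4/80low arrays, against 9.72, 9.92 and 9.82 in PECs. It differed from PECs by -0.93 ± 0.25 in F4/80high and -1.56 ± 0.25 in F4/80low TAMs (-0.83 and -1.46 within slide 1).

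As for Spp1, F4/80low TAM replicate 3 carried the overlap of Cd63 between the subsets. The difference was 0.63 ± 0.25 with all arrays and 0.90 ± 0.21 without that array, when it passed the threshold. The Cd63 difference passed in 4 of 19 alternatives and that of Spp1 in 2 of 18. Each call was thus also gained by changes other than leaving out this array. This array held the highest F4/80low level of 6 of the 10 genes (Apoe, Spp1, Lgals3, Lgals1, Cd9 and Cd63). Without it 6 of the 10 genes passed between the subsets, 5 of them higher in F4/80high TAMs, against 4 with all arrays. Of the 16557 genes then tested, 2908 were higher and 2122 lower, against 3064 and 2304 of 16462 with all arrays. Each array was left out in turn and this one was named after its values were seen, so nothing is read from these counts.

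**Figure D2:**
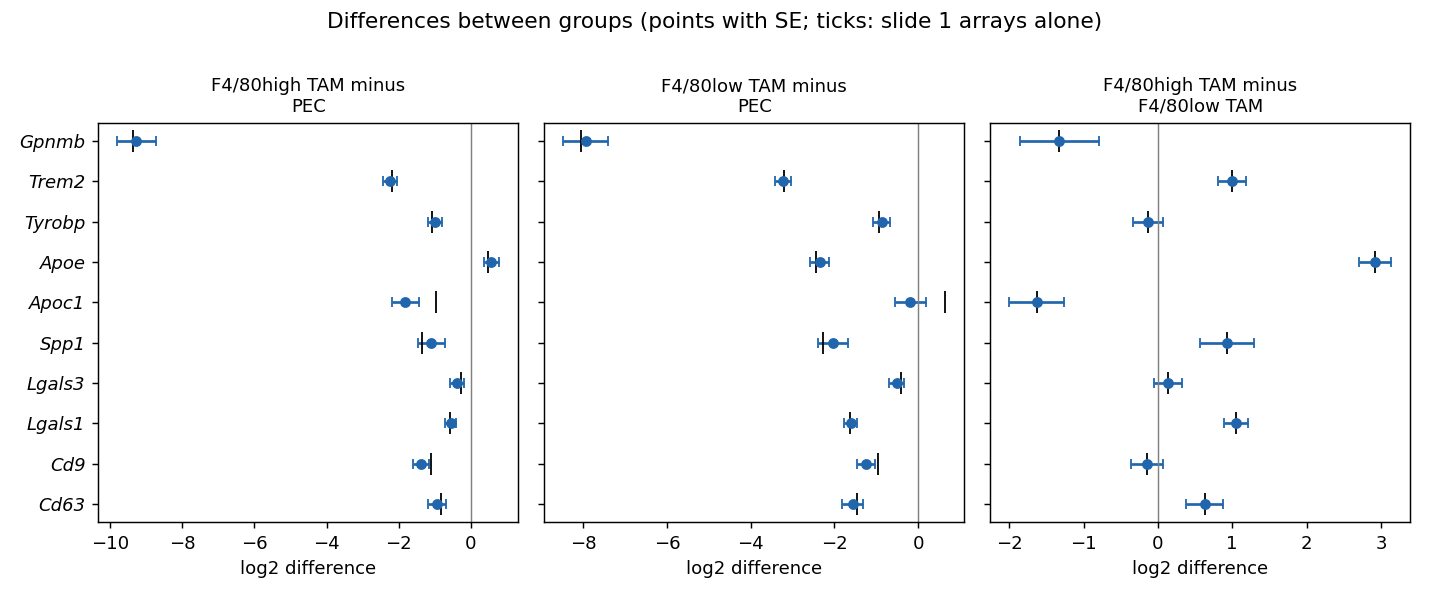
Log2 differences of the 10 genes (points, with the SE of the fit as bars) in F4/80high TAMs minus PECs, F4/80low TAMs minus PECs, and F4/80high minus F4/80low TAMs, with a tick at the value from slide 1 arrays alone. Gpnmb lies at -9.27 and -7.94, the ticks of Apoc1 lie away from its points in both PEC comparisons, and Apoe lies at 2.92 between the subsets.

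Markers of other cell types differed between the groups, most of them in the F4/80low subset. The summed level of 7 measured neutrophil genes (array's 75th percentile at 1) was 221 to 323 in F4/80high arrays and 1822 to 6495 in F4/80low arrays, against 112 to 152 in PECs. All 7 were well above background on every F4/80low TAM array, against 4 in F4/80high TAMs and 2 in PECs. Cxcr2 was above background on no F4/80high TAM array, and Retnlg, Cxcr2 and Ngp were on no PEC array. Most of the neutrophil sum in F4/80high TAMs and in PECs was Csf3r. Its log2 level was 7.79 in F4/80high arrays and 7.78 in F4/80low arrays, against 6.98 in PECs. The sum of 8 fibroblast and fibrosarcoma genes was 2.12 to 3.17 in F4/80high arrays and 9.38 to 18.9 in F4/80low arrays, against 2.41 to 3.00 in PECs. One gene of this list, Thy1, which T cells also express, carried that difference: it stood at 3.11 in F4/80low TAMs and was not well above background in F4/80high TAMs or PECs. Col1a1 differed by -2.20 ± 0.45 in F4/80high against F4/80low TAMs and passed the threshold (limma's adjusted p = 0.00534). It was dim there, above background on 1 F4/80low TAM array and on no F4/80high TAM array. Col1a2, Col3a1 and Dcn differed by 0.06, -0.03 and -0.92 in the same comparison and did not pass. Lum, Pdgfra and Pdgfrb were above background on no array of any group.

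The macrophage sum was 849 to 1301 in F4/80high arrays and 570 to 850 in F4/80low arrays, against 947 to 1143 in PECs. T cell genes summed to 11.8 to 14.9 in F4/80high arrays and 16.8 to 30.4 in F4/80low arrays, against 6.73 to 11.7 in PECs. Most of the F4/80high sum was Cd4, whose log2 level was 3.46, 2.84 and 2.55 in the same order. Cd3d, Cd3g, Cd8a and Cd5 were above background on no F4/80high TAM array. NK cell genes summed to 0.192 to 0.271 in F4/80high arrays and 0.673 to 2.40 in F4/80low arrays, against 0.259 to 0.330 in PECs, and of 4 genes only Eomes was above background on all F4/80low arrays. Mesothelial genes summed to 0.261 to 0.442 in F4/80high arrays and 1.74 to 2.38 in F4/80low arrays, against 0.152 to 0.209 in PECs, and Msln alone of 4 was above background on all F4/80low arrays. B cell sums were at or below 1.54 on every array.

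The platelet list rested on 1 gene, Pf4, which macrophages also make. Its sum was 59.0 to 74.4 in F4/80high arrays and 2.18 to 6.35 in F4/80low arrays, against 49.5 to 94.0 in PECs, and Itga2b was above background on no array. The dendritic cell sum was 290 to 318 in F4/80high arrays and 259 to 304 in F4/80low arrays, against 127 to 191 in PECs. Most of it was Siglech, at 8.03, 7.82 and 7.28 in the same order. Siglech differed from PECs by 0.75 ± 0.21 in F4/80high TAMs and by 0.53 ± 0.21 in F4/80low TAMs, where it did not pass. Flt3 and Clec9a were above background on F4/80low TAM arrays only and Zbtb46 on F4/80high TAM arrays only. Cd209a and Xcr1 were above background on no array, so the list did not move as a whole. Ccr7 rose by 7.01 ± 0.72 in F4/80high TAMs (limma's adjusted p = 4.9e-05) and by 7.24 ± 0.72 in F4/80low TAMs (adjusted p = 5.65e-05), and it was above background on 2 of 3 PEC arrays. Endothelial genes summed to 38.1 to 47.3 in F4/80high arrays and 27.8 to 44.5 in F4/80low arrays, against 20.6 to 35.4 in PECs. That sum rested on Kdr, at 5.44, 5.22 and 4.74 in the same order. The part of these cells in the levels of the 10 genes in either TAM subset was not tested, and in such bulk samples fewer cells of a type and less RNA per cell cannot be told apart.

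**Figure D3:**
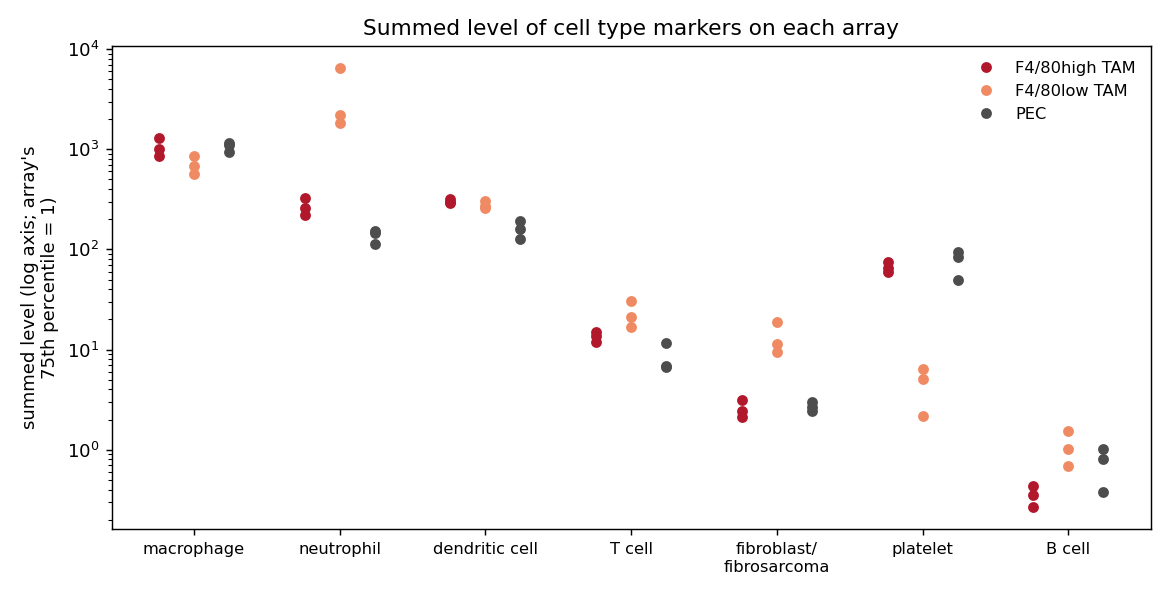
Summed linear level of the marker genes of 7 cell types on each array (log axis, array's 75th percentile at 1), with F4/80high TAMs, F4/80low TAMs and PECs side by side. The neutrophil sum is highest in the 3 F4/80low TAM arrays (1822 to 6495), and the platelet sum, which rests on Pf4, is lowest there (2.18 to 6.35).

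Around these 10 genes, 7 lists of genes of the same pathways and families were read, 101 tested genes of 119 listed. The lists too were chosen with earlier results of these data known. They are therefore no independent support for the pattern of the 10 genes. In F4/80high TAMs against PECs 27 of the 101 were higher and 48 lower past the threshold, beside 25.0% and 28.0% of all genes. In F4/80low TAMs against PECs 19 were higher and 51 lower, beside 22.7% and 29.2% of all genes. In F4/80high against F4/80low TAMs 39 were higher and 22 lower, beside 18.6% and 14.0% of all genes. Within slide 1 the totals past the threshold were 59, 50 and 53. Below, "rose" and "fell" mean an adjusted p under 0.05 over all genes in limma, and each named gene separated the arrays of the compared groups without overlap. The counts of each list are to be read beside the shares of all genes given above. A gene named for 1 comparison can differ in the others as well. No direction is given for the TREM and DAP12 genes or for the apolipoproteins and lipoprotein receptors.

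Most of the other lipid-associated macrophage genes on the chosen list were also lower in TAMs than in PECs. Of 30, 22 fell and 4 rose in F4/80high TAMs against PECs (median -1.98, all genes 0.00), and 21 fell and 3 rose in F4/80low TAMs (median -1.76, all genes -0.09). Cd36, a scavenger receptor for oxidised lipoprotein, was not well above background on any TAM array and stood at 7.53 in PECs, which makes it at least 866-fold lower in F4/80high TAMs (adjusted p = 1.43e-07) and at least 781-fold lower in F4/80low TAMs (adjusted p = 2.1e-07). Lpl, lipoprotein lipase, fell by 6.77 ± 0.18 on the log2 scale in F4/80high TAMs (adjusted p = 3.46e-08). Mmp12, macrophage elastase, fell by 8.65 ± 0.54 in F4/80low TAMs (adjusted p = 4.27e-06), with 2 of the 3 arrays there above background, and a second, dimmer probe gave -7.27. In F4/80high TAMs against PECs Mmp12 differed by -6.50, and by -6.41 with the dimmer probe.

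The exceptions were Cst7, a cystatin inhibitor of cathepsins, and Csf1, the growth factor of macrophages. Cst7 stood at 3.91 in F4/80high arrays and 3.08 in F4/80low arrays and was not well above background on any PEC array, so it was at least 84.6-fold higher in F4/80high TAMs (adjusted p = 2.03e-07) and at least 47.6-fold higher in F4/80low TAMs (adjusted p = 6.22e-07). Csf1 rose by 4.53 ± 0.69 in F4/80high TAMs (adjusted p = 0.000533) and by 3.37 ± 0.69 in F4/80low TAMs (adjusted p = 0.00326). It was above background on 2 of 3 PEC arrays, and its dimmer probes gave 3.44 and 3.84 in F4/80high TAMs.

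Between the subsets 12 of the 30 rose and 6 fell (median 0.05, all genes 0.08). Fabp4, a fatty acid binding protein, was 2.65 ± 0.55 higher in F4/80high than in F4/80low TAMs (adjusted p = 0.00545), with 2 of 3 F4/80low arrays above background, and Lgmn, the lysosomal protease legumain, 2.37 ± 0.21 higher (adjusted p = 7.55e-05). Atp6v0d2, a subunit of the proton pump of lysosomes, differed by -4.88 ± 0.32 in F4/80high against F4/80low TAMs (adjusted p = 1.7e-05), and Mfge8, a bridge for the uptake of dying cells, by -1.80 ± 0.26 (adjusted p = 0.000924). After quantile normalization 10 rose and 11 fell, so no direction is given for this list between the subsets.

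Of the 17 tested TREM and DAP12 genes, 6 rose and 4 fell in F4/80high TAMs against PECs, and 4 rose and 6 fell in F4/80low TAMs. Trem1 and Trem3, activating receptors that also signal through DAP12 and are found on neutrophils, ran against Trem2 between the subsets. Trem1 stood at 1.35 ± 0.26 in F4/80high and 4.17 ± 0.43 in F4/80low TAMs (SD, n = 3 each; limma's adjusted p = 6.84e-05). Trem3 differed by -2.77 ± 0.73 in F4/80high against F4/80low TAMs (adjusted p = 0.0179), a call that was lost without F4/80high TAM replicate 2 or 3 and with no filter on dim probes. The arrays with more Trem1 and Trem3 are those with the neutrophil sum of 1822 to 6495, and the part of these cells was not tested.

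Cd300lb, another receptor that couples to DAP12, was lower in both subsets, as Trem2 was: it fell by 2.67 ± 0.17 in F4/80high TAMs (adjusted p = 4.11e-06) and fell by 3.44 ± 0.17 in F4/80low TAMs (adjusted p = 1.46e-06). Treml2 was at least 5.79-fold higher in F4/80high TAMs than in PECs, where it was not well above background (adjusted p = 0.000467). Treml4 rose by 3.57 ± 0.21 in F4/80low TAMs against PECs (adjusted p = 3.31e-06), where it was above background on 2 of 3 PEC arrays. Pik3cd, a kinase downstream of such receptors, was 1.39 ± 0.20 higher in F4/80high than in F4/80low TAMs (adjusted p = 0.00089).

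In the list of regulators of lipid and lysosome genes and their targets, more genes fell than rose against PECs. Of 16 nuclear receptors, MiT-TFE factors and targets, 8 fell and 2 rose in F4/80high TAMs (median -0.66, all genes 0.00). In F4/80low TAMs 9 fell and 2 rose (median -1.01, all genes -0.09). Pparg, the nuclear receptor for fatty acid derivatives, fell by 4.98 ± 0.33 in F4/80low TAMs (adjusted p = 6.31e-06) and was 2.25 ± 0.33 higher in F4/80high than in F4/80low TAMs (adjusted p = 0.00101). Its mean in F4/80high arrays was also below that in PECs, at 1.74 against 4.46. Nr1h3, the oxysterol receptor LXRα that drives Apoe in macrophages, had the direction of Apoe between the subsets. It was 1.73 ± 0.29 higher in F4/80high than in F4/80low TAMs (adjusted p = 0.00183). Nr1h3 also fell by 2.49 ± 0.29 in F4/80low TAMs against PECs (adjusted p = 0.000142). Unlike Apoe, it did not have its highest mean in F4/80high TAMs. From PECs to that subset Nr1h3 differed by -0.75, and by -0.98 with a dimmer probe, where Apoe differed by 0.57. The part of Nr1h3 in the Apoe levels was not tested.

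Among the MiT-TFE factors, Tfeb fell by 4.16 ± 0.52 in F4/80high TAMs against PECs (adjusted p = 0.000162) and differed by -2.22 ± 0.52 in F4/80high against F4/80low TAMs (adjusted p = 0.0101); it was above background on 2 of 3 F4/80high arrays. Tfec rose in both, by 1.96 ± 0.33 in F4/80high TAMs (adjusted p = 0.000989) and by 1.37 ± 0.33 in F4/80low TAMs (adjusted p = 0.00785, lost when arrays were centred on their median). Scd2, a fatty acid desaturase, fell by 3.52 ± 0.48 in F4/80high TAMs (adjusted p = 0.000287).

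Of 10 tested apolipoproteins and lipoprotein receptors, 3 rose and 3 fell in F4/80high TAMs and 3 rose and 4 fell in F4/80low TAMs, each against PECs. Apoc2, the cofactor of lipoprotein lipase, rose by 2.49 ± 0.32 in F4/80high TAMs (adjusted p = 0.000193). Apod rose by 1.61 ± 0.26 in F4/80high TAMs (adjusted p = 0.000701) and by 2.07 ± 0.26 in F4/80low TAMs (adjusted p = 0.000206). Lrp1, an endocytic receptor for Apoe-bearing particles, fell by 2.48 ± 0.32 in F4/80high TAMs (adjusted p = 0.000216) and fell by 3.54 ± 0.32 in F4/80low TAMs (adjusted p = 3.56e-05).

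Partners of osteopontin and Gpnmb rose more often than they fell in F4/80high TAMs against PECs, with 6 of 9 tested up and 2 down (median 1.29, all genes 0.00). In F4/80low TAMs 4 rose and 3 fell, but 2 rose and 3 fell when arrays were centred on their median, so no direction is given there. Sdc4, a heparan sulphate proteoglycan to which Gpnmb binds, rose by 6.33 ± 0.29 in F4/80high TAMs (adjusted p = 6.3e-07) and by 4.33 ± 0.29 in F4/80low TAMs (adjusted p = 6.84e-06), and it was above background on 2 of 3 PEC arrays. Itgb3, the β3 integrin chain of an osteopontin receptor, stood at 3.41 in F4/80low TAMs and was not well above background in F4/80high TAMs, at least 49.6-fold lower there (adjusted p = 4.98e-06). A second, dimmer Itgb3 probe gave a smaller log2 difference of -2.73. Itgb5 fell by 3.17 ± 0.38 in F4/80low TAMs against PECs (adjusted p = 0.000179).

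Of 4 tested genes on the list of other galectins, 2 rose and 0 fell in F4/80high TAMs against PECs. This list also holds Lgals3bp, which is no galectin gene and is among those that rose. In F4/80low TAMs 1 rose and 0 fell, but 0 rose and 2 fell when arrays were centred on their median, so no direction is given there. Lgals9 rose by 1.76 ± 0.24 in F4/80high TAMs (adjusted p = 0.000276), and Lgals3bp, which encodes a secreted ligand of galectin-3, by 1.85 ± 0.25 (adjusted p = 0.000282). Both were also higher in F4/80high than in F4/80low TAMs, by 2.09 ± 0.24 (adjusted p = 0.000273) and by 1.77 ± 0.25 (adjusted p = 0.000885).

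Of 15 other tetraspanins, 9 fell and 4 rose in F4/80high TAMs against PECs, and 8 fell and 2 rose in F4/80low TAMs. Tspan33 was not well above background in PECs and stood at 4.61 in F4/80high arrays and 1.69 in F4/80low arrays, at least 143-fold and at least 18.9-fold higher than in PECs (adjusted p = 2.32e-07 and 3.05e-06). Cd81, a close partner of Cd9 at the membrane, was 3.83 ± 0.39 higher in F4/80high than in F4/80low TAMs (adjusted p = 0.000156) and rose by 3.65 ± 0.39 in F4/80high TAMs against PECs (adjusted p = 6.18e-05). Tspan13 fell by 3.18 ± 0.25 in F4/80low TAMs (adjusted p = 1.54e-05), and Tspan5 fell by 3.21 ± 0.22 in F4/80high TAMs (adjusted p = 4.64e-06).

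**Figure D4:**
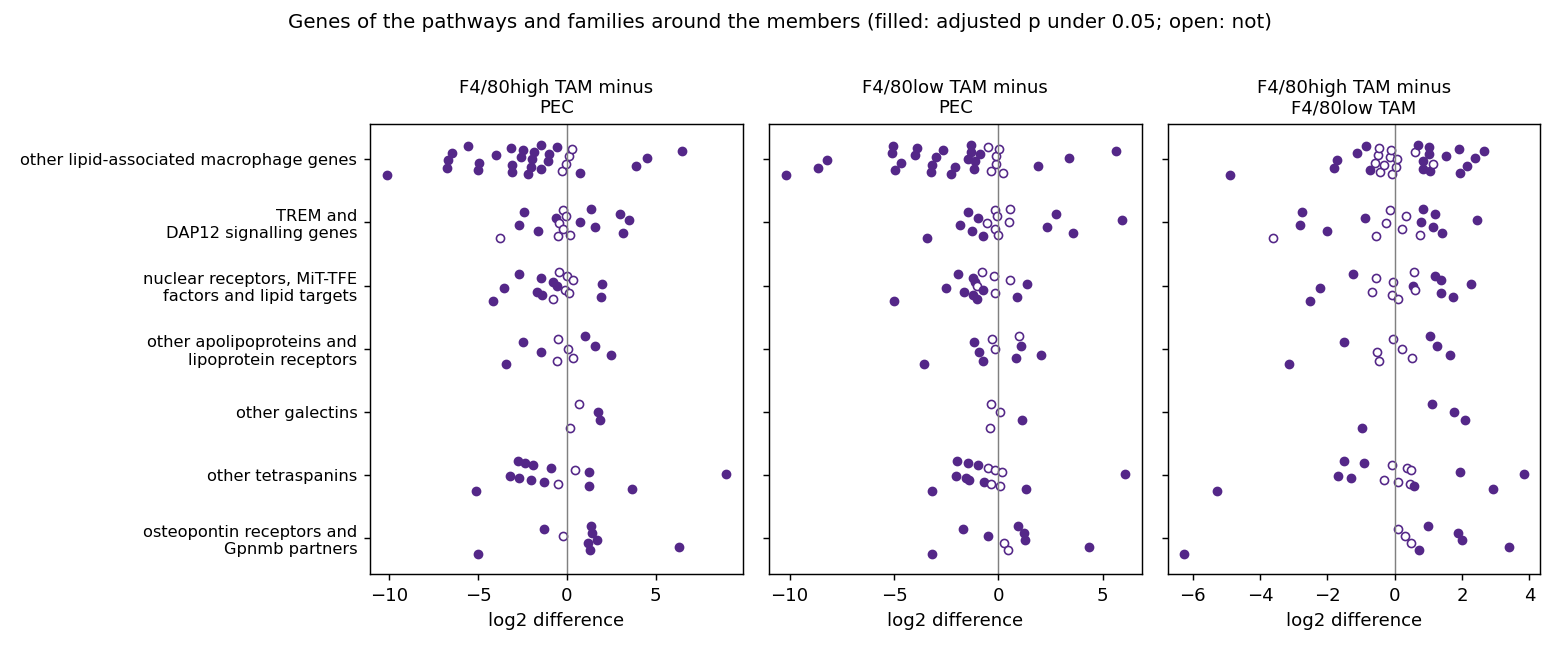
Log2 differences of the 101 tested genes of the 7 lists (each point a gene, filled where the adjusted p over all genes is under 0.05), in the 3 comparisons. In the lipid-associated list 22 of 30 points are filled below 0 in F4/80high TAMs against PECs and 21 in F4/80low TAMs, while the osteopontin and galectin lists lie mostly above 0 in F4/80high TAMs.

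Over the 9 arrays, the 5 genes with the highest Pearson r to Gpnmb were Mdp1 (0.997), Rasgrp3 (0.995), Elac1 (0.993), Npy (0.993) and Echdc3 (0.992). Rasgrp3 and Echdc3 were well above background only in PECs, and Npy, which encodes a neuropeptide, stood at 5.89 in PECs and was above background on 1 of 6 TAM arrays. Mdp1 and Elac1 followed the same order over a smaller range, with differences of -2.03 each in F4/80high TAMs against PECs. The 5 genes most like Trem2 were Plin2 (0.996), Daglb (0.996), Itgax (0.995), Abca3 (0.995) and Cfap36 (0.994), all above background on the 9 arrays. Plin2 coats lipid droplets, Daglb is a lipase of diacylglycerol, and Itgax encodes the integrin CD11c. Plin2 almost matched the size of the Trem2 differences, at -2.21 in F4/80high TAMs, -3.24 in F4/80low TAMs and 1.03 between the subsets, beside -2.23, -3.24 and 1.00 for Trem2. The arrays form 3 groups, so such an r mostly restates group means over shared arrays, and it is given as a description.

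**Figure D5:**
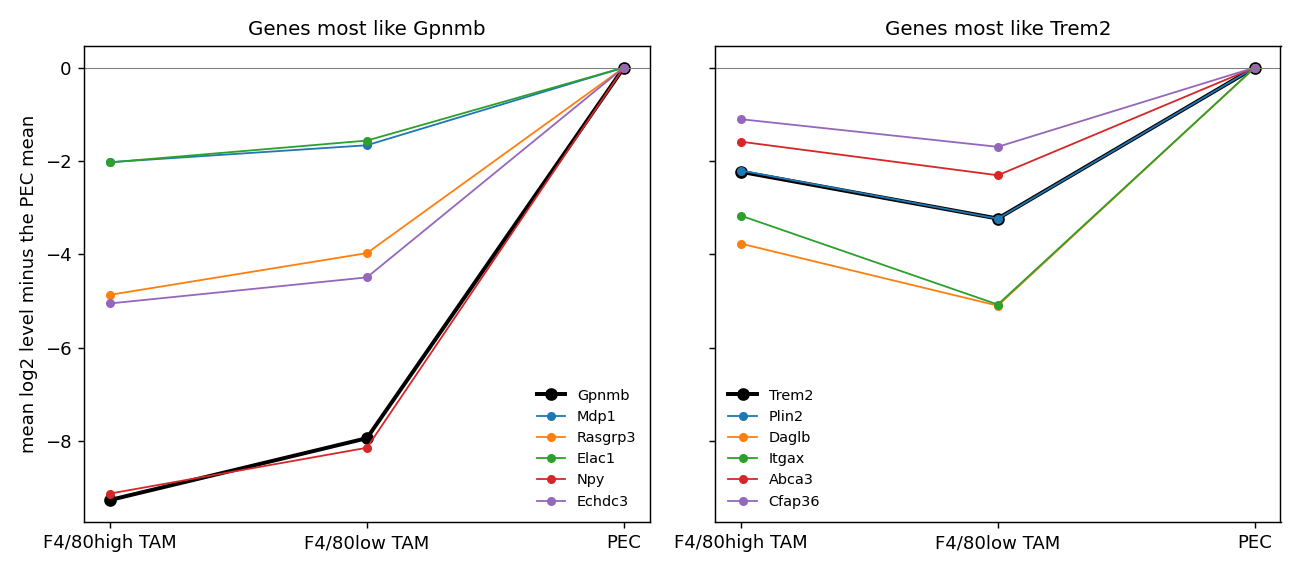
Mean log2 level minus the PEC mean (vertical axis) in F4/80high TAMs, F4/80low TAMs and PECs for Gpnmb (left) and Trem2 (right) in black, each with the 5 genes most like it. Npy runs along Gpnmb near -9 and -8, and Plin2 lies on Trem2.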

How the data were processed

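Total RNA of 9 samples was hybridised to Agilent single-colour mouse arrays. Per the file headers, the deposited scanner files hold spot intensity from Feature Extraction 10.5.1.1 (protocol GE1_105_Dec08), after the software's own background subtraction. A table deposited beside them gives log2 values of 9703 probes, with 7 of the 10 genes among them; its scale was read from the values (column medians 8.26 to 8.35), and its normalization, centring and probe filter are not given in the sources used here, so it served as an alternative. Spots marked as outliers (103 to 307 per array) and controls were left out, the log2 processed intensity minus the array's 75th percentile was taken, and spots of a probe were averaged. The filter asked for 3 arrays of some group well above background, which 21197 probes met; the brightest of them stood for its gene (16462 genes). Symbols were updated through RefSeq accessions (26413 probes matched, 3093 changed name).

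The limma package (3.58.1, lmFit with eBayes; R 4.3.3) fitted all 9 arrays at once, two-sided, with Benjamini-Hochberg adjustment over all genes of a contrast at 0.05; the fit was tested on simulated data. Where every array of one group and no array of the other was above background, the fold is a lower bound ("at least"), with the dim group at its own signal or the lowest signal well above background on that array, whichever is higher. The 10 genes, the lists around them and the tests were chosen with earlier results of these data known, so the group differences of the 10 genes carry no p. Genes named from a list are, per comparison, up to 2 with the largest positive and 2 with the largest negative difference among those past the threshold whose arrays do not overlap. One result under this rule is not reported here. Alternatives were normexp (offset 50), quantile normalization, median centring, no filter on dim probes, the mean of a gene's probes, the deposited table, slide as a block, slide 1 alone, the compared groups alone, a replicate block, and each array left out. Residuals of same-numbered F4/80high and F4/80low TAM arrays correlated at 0.233, 0.171 and 0.134, and those of TAM arrays with PECs at -0.096 to 0.091. The numbers may therefore pair the TAM arrays, but the sample titles do not state it and arrays with different numbers were not compared. The main fit is unpaired. Promoters were read from RefSeq's GRCm38.p6 table, probe positions from the files (mm9). Precision is limited by the number of arrays; a log2 difference had a median SE of 0.236.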

Additional observations from a re-analysis of the deposited data

Results flagged for a closer look

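Among the 10 genes and the 101 tested genes of the lists, 5 had every F4/80high TAM array on one side of all PEC arrays. Every F4/80low TAM array of these 5 genes lay on the other side. The check was not made over all genes, so no share of all genes can be set beside it. Both comparisons share the PEC arrays, and the test of their difference is the comparison of the TAM subsets. Apoe, one of the 10 chosen genes and so given with no p, differed from PECs by 0.57 in F4/80high TAMs and by -2.35 in F4/80low TAMs. Tspan3 differed by 1.25 and -0.70, with a difference between the subsets of 1.95 (limma, adjusted p = 0.000447). Itga9 differed by 1.69 and -1.71, with a difference of 3.40 (adjusted p = 0.00201), but it was not well above background in F4/80low TAMs, and each of its PEC differences lost its call within slide 1. Trem1 differed by -0.47 and 2.35, with a difference of -2.82 (adjusted p = 6.84e-05). Its difference of -0.47 in F4/80high TAMs against PECs did not pass the threshold (limma, adjusted p = 0.126). Itgb3 differed by -5.03 and 1.22, with a difference of -6.25 (adjusted p = 4.98e-06); it was not well above background in F4/80high TAMs, and its fitted differences there are no bound. Tspan3 was picked out after its values were seen.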

How the results depend on the processing

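The genes past the threshold numbered 8737, 8542 and 5368 in F4/80high TAMs against PECs, F4/80low TAMs against PECs and F4/80high against F4/80low TAMs. With slide as a block the counts against PECs were 5631 and 4904, and with slide 1 arrays alone 5344 and 4487; both rest on 1 PEC array against the TAM arrays. With no filter on dim probes 36492 genes were tested and 14388 passed in F4/80low TAMs against PECs; the cause was not tested. Of the 10 chosen genes, 8 passed in F4/80high TAMs against PECs, 4 with slide as a block and 5 with slide 1 alone. The other alternatives kept these counts, and those over the 7 lists (75, 70 and 61), within 1.5 times. Leaving out each array gave 7038 to 9031, 6602 to 8560 and 3924 to 5511 genes, and 6 to 9, 8 to 9 and 4 to 6 of the 10. With the replicate block, which pairs F4/80high and F4/80low TAM arrays, 5186 genes passed between the subsets and 5 of the 10 chosen genes, Gpnmb being added.

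No called difference of the 10 genes or of the named list genes changed sign. Among the 10, Apoc1 in F4/80low TAMs against PECs, and Tyrobp and Cd9 between the subsets, had no settled sign. Some calls against PECs were not stable. That of Lgals3 in F4/80low TAMs passed in 5 of 18 alternatives, and that of Spp1 in F4/80high TAMs in 11 of 18. Of 471 values for named genes in each comparison, 14, 22 and 21 lost their call in the 3 comparisons, among them Clu, Sorl1, Itga9 and Trem3 in more than 1 setting each. Each gene but Apoe rests on 1 spot per array.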

Other observations

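The genes most like Apoe were looked up after the values were seen. Over the 9 arrays the highest Pearson r were those of Mrc1 (0.992), Unc93b1 (0.989), Adat2 (0.986), Dok1 (0.986) and Efemp2 (0.983). Mrc1 encodes the mannose receptor CD206, a surface marker of alternatively activated and resident macrophages, and Unc93b1 a chaperone of endosomal Toll-like receptors. Mrc1 stood at 3.64 ± 0.41 in F4/80high arrays and -1.08 ± 0.67 in F4/80low arrays, against 3.08 ± 0.18 in PECs (SD, n = 3 each). It thus had the order of Apoe, with a wider gap of 4.72 between the TAM subsets on the log2 scale beside 2.92 for Apoe.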
